A study of Sus scrofa with 7 samples.

Results

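The genes of cholesterol and fatty acid synthesis were followed in porcine extra-embryonic endoderm (pXEN) cells, naïve-like embryonic stem cells (nESCs) and primed embryonic stem cells (pESCs). The set was a fixed list of 40 gene symbols for the enzymes and regulators of lipid synthesis, chosen by function, and a gene belonged to it when the deposited tables gave it that symbol. Of the 40 symbols, 31 were found among the 29510 listed genes, and all 31 passed the filter on low counts that left 17447 genes for testing. The 9 symbols not found by name were IDI1, ACSL1, GPAM, CYP51A1, MVD, MSMO1, LPIN1, INSIG2 and SREBF1. CYP51A1 is another symbol for CYP51, which was found. For 6 genes missed by name, and for ACACA, whose named entry is only a short fragment, 7 entries listed under another name or without a name were matched by identifier or description; they are described apart from the 31. MVD and INSIG2 were not analysed here.

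RNA was sequenced from 3 pXEN lines, 2 nESC lines and 2 pESC lines, with 1 library per line. The pXEN lines 1, 2 and 3 came from the inner cell mass of parthenogenetic blastocysts and were sampled at passages 26, 26 and 23, on mouse embryonic fibroblast feeders in a serum-containing medium with knockout serum replacement, LIF, the GSK3 inhibitor CHIR99021, dimethindene, minocycline and Y27632. The nESC lines 1 and 2, also from the inner cell mass, were at passages 21 and 22, on the same kind of feeders, in a serum-replacement and N2B27 medium with FGF, LIF, CHIR99021, the MEK inhibitor PD0325901, the TGFβ receptor inhibitor SB431542 and doxycycline. The pESC lines 1 and 2 had been converted from naïve-like ESCs and were both at passage 20, on STO feeders in a medium with serum replacement, insulin-transferrin-selenium, activin A, bFGF, EGF and LIF. Cell type and medium, with the lipid that serum or its replacement supplies, cannot be told apart in this design, nor can the kind of feeder in the comparisons with pESCs. In these bulk samples a smaller share of cells expressing a gene and less RNA per cell cannot be told apart either.

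Cells make cholesterol from cytosolic acetyl-CoA through mevalonate, farnesyl diphosphate, squalene and lanosterol, and they make fatty acids from acetyl-CoA and malonyl-CoA with NADPH as the reductant. The transcription factors SREBP-1 and SREBP-2, encoded by SREBF1 and SREBF2, are held in the endoplasmic reticulum membrane by SCAP and the INSIG proteins when sterol is plentiful, and are carried to the Golgi and cleaved when it is scarce. The released fragments switch on most genes of both routes, and INSIG1 is itself a target. Visceral endoderm of the early embryo is known for taking up, packaging and secreting lipid for the embryo.

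Library totals ran from 10408164 to 12995720 counts. The extra-embryonic endoderm markers summed to between 13245 and 15593 CPM (counts scaled to the library total) in the pXEN lines. They summed to between 106 and 135 CPM in the nESC lines and to 1266 and 1283 CPM in the pESC lines. Most of the pESC sum was COL4A1 (3553 and 3976 counts), COL4A2 (5111 and 5450) and LAMB1 (5632 and 6517). In the same lines GATA4 had 1 and 0 counts, SOX17 21 and 9, FOXA2 3 and 3, HNF4A 13 and 9, and GATA6 313 and 407. Of the 12 markers, SOX7 was at or near 0 in every library. The pluripotency markers summed to between 1034 and 1302 CPM in the pXEN lines, to 589 and 678 CPM in the nESC lines and to 2110 and 2262 CPM in the pESC lines; of the 10 tested, 5 were higher and 2 lower in pXEN than in nESC lines, and 3 higher and 6 lower than in pESC lines. LIN28A, SALL4 and OTX2 were among those higher in pXEN lines in both comparisons, while SOX2 had 1633 and 1940 counts in the nESC lines, 2452 and 2729 in the pESC lines, and 0, 30 and 0 in pXEN lines 1, 2 and 3. DPPA4 and ZFP42 were at 0 in every library. In the nESC lines TDGF1 had 0 counts and UTF1 0 and 1. pXEN line 2 stood apart: 11 fibroblast and feeder markers summed to 514 CPM there, against 14.7 and 34.0 CPM in pXEN lines 1 and 3, 87.4 and 112 CPM in the nESC lines and 274 and 314 CPM in the pESC lines. Most of the sum in pXEN line 2 was COL3A1 (4251 counts), COL1A2 (1237) and COL1A1 (407), while TWIST1 had 1 count and DCN 24. In the pESC lines COL3A1 had 12 and 29 counts and DCN 344 and 780. The counts of calls, and the calls of synthesis genes that change without pXEN line 2, are given both ways. The trophectoderm markers summed to 255 and 238 CPM in the pESC lines, to 33.7 and 48.2 CPM in the nESC lines and to between 70.0 and 83.2 CPM in the pXEN lines, and 4 of the 5 tested were higher in pESC than in nESC lines; their part in the comparisons with pESCs was not tested. Levels below are FPKM, which is per length of the listed gene, and are given in the order of the line numbers; fold changes are log2 differences from edgeR's quasi-likelihood test with 1 standard error (SE) and a Benjamini-Hochberg adjusted p, called where that p is below 0.05.

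Sterol and fatty acid synthesis genes were higher in the pXEN lines than in either ESC type. Against the nESC lines 21 of the 31 genes were higher and 1, FADS1, was lower; over all genes tested 28.3% were higher and 26.2% lower, 54.5% in all. Against the pESC lines 21 were higher and 0 lower by edgeR, and 23 higher and 0 lower by DESeq2 (the 2 genes with a negative fold change, ELOVL1 and FADS1, had unadjusted p = 0.566 and 0.215), where 23.9% of all genes were higher and 24.4% lower, 48.3% in all. The median log2 fold change of the 31 genes was 0.83 against the nESC lines and 1.13 against the pESC lines, with medians over all genes of 0 and -0.012. Between the ESC types the set moved in both directions: 12 genes were called, 4 higher and 8 lower in the pESC lines, with a median of -0.21, where 19.0% of all genes were higher and 13.3% lower, 32.2% in all. Both pXEN comparisons share the pXEN libraries, and each pair of comparisons shares a group. The 31 genes together took 0.940%, 0.837% and 0.866% of the counts in the pXEN lines, 0.593% and 0.536% in the nESC lines and 0.460% and 0.435% in the pESC lines, so the 3 cell types did not overlap.

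**Figure D1:**
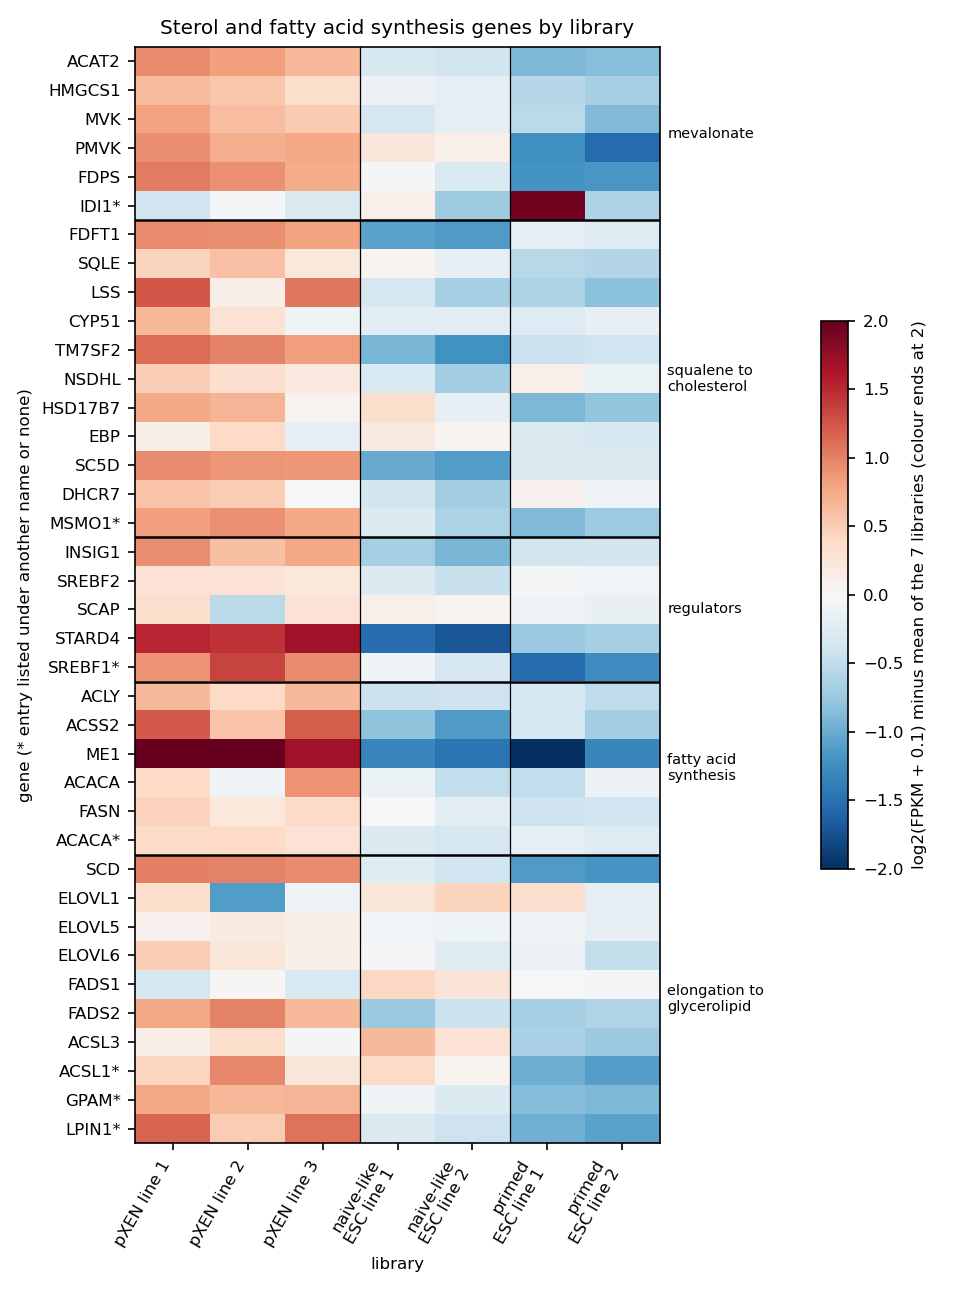
Level of each gene (rows, grouped by role; an asterisk marks an entry listed under another name or none) in each of the 7 libraries (columns), as log2(FPKM + 0.1) minus the mean of the gene's 7 libraries, in a colour scale that ends at 2 in both directions. Most rows are high in the 3 pXEN columns; the order of the ESC columns differs between genes, with FDPS and SCD lowest in the primed lines and FDFT1, SC5D and STARD4 lowest in the naïve-like lines.

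The 5 genes of the mevalonate segment were higher in pXEN cells against both ESC types, 5 of 5 each time, and 4 of the 5 were lower in pESCs than in nESCs. ACAT2, the cytosolic thiolase that joins 2 acetyl-CoA, had 229, 210.4 and 187 FPKM in the pXEN lines, 95.0 and 92.3 in the nESC lines and 63.7 and 66.1 in the pESC lines. The 3 cell types did not overlap, and the pXEN lines were higher by 1.15 (SE 0.11, adjusted p = 8.98e-05) against nESCs and by 1.69 (SE 0.12, adjusted p = 2.33e-05) against pESCs. HMGCS1, which makes HMG-CoA (chromosome 16, 29433805 to 29454088, build Sscrofa10.2 for all positions given), had 156, 149 and 129 FPKM in the pXEN lines, 93.2 and 88.0 in the nESC lines and 67.9 and 64.0 in the pESC lines. It kept the same order, with log2 differences of 0.67 (SE 0.11, adjusted p = 0.00149) and 1.14 (SE 0.11, adjusted p = 0.00014). Its chromosome went the other way against nESCs: over 273 genes of chromosome 16 (mean count 10 or more) the median log2 fold change was -0.71 for pXEN against nESC, -0.53 for pESC against nESC and -0.027 for pXEN against pESC.

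MVK, mevalonate kinase, stood at 19.3, 17.1 and 15.9 FPKM in pXEN lines against 8.74 and 9.75 in nESC lines and 7.61 and 5.99 in pESC lines. PMVK, the kinase of the next step, showed the widest gap between the ESC types of the whole set. It had 20.4, 17.6 and 18.1 FPKM in the pXEN lines, 12.4 and 11.4 in the nESC lines and 4.45 and 3.59 in the pESC lines. The log2 difference of pESC from nESC lines was -1.58 (SE 0.20, adjusted p = 0.000844), and the pXEN lines exceeded the pESC lines by 2.22 (SE 0.19, adjusted p = 6.08e-05) and the nESC lines by 0.65 (SE 0.17, adjusted p = 0.0131). The last of these was not called without nESC line 1 or nESC line 2 (adjusted p = 0.0523 and 0.0819). FDPS, which builds farnesyl diphosphate and lies close to PMVK on chromosome 4 (103291798 to 103304048, with PMVK at 103634253 to 103646149), had the highest level of the set in the pXEN lines. Its levels were 431, 395 and 351 FPKM in pXEN lines, 206 and 173 in nESC lines and 91.7 and 94.1 in pESC lines. Each cell type was apart from the others: log2 differences were 1.04 (SE 0.13, adjusted p = 0.00028) for pXEN against nESC, 2.09 (SE 0.13, adjusted p = 1.64e-05) for pXEN against pESC and -1.04 (SE 0.14, adjusted p = 0.00106) for pESC against nESC.

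From squalene onward, 7 of 10 genes were higher in pXEN cells than in nESCs and 6 higher than in pESCs, and between the ESC types 3 were higher and 2 lower in pESCs. FDFT1, squalene synthase and the first committed step to sterol, had 198, 196 and 180.1 FPKM in the pXEN lines, 49.2 and 46.8 in the nESC lines and 89.7 and 85.9 in the pESC lines. Here the nESC lines were lowest: log2 differences were 1.99 (SE 0.10, adjusted p = 3.65e-06) for pXEN against nESC, 1.13 (SE 0.098, adjusted p = 6.69e-05) for pXEN against pESC and 0.86 (SE 0.11, adjusted p = 0.000782) for pESC against nESC. FDPS and FDFT1 catalyse neighbouring steps, and their orders across the ESC types were opposite.

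TM7SF2, a sterol C14 reductase, had 82.8, 76.6 and 68.7 FPKM in the pXEN lines, 20.4 and 16.5 in the nESC lines and 28.3 and 29.0 in the pESC lines. SC5D, the sterol C5 desaturase, had 41.0, 39.3 and 39.0 FPKM in the pXEN lines, 10.5 and 9.78 in the nESC lines and 17.3 and 17.3 in the pESC lines. Both followed FDFT1 in their order, without overlap between cell types: TM7SF2 was higher in pXEN than in nESC lines by 2.04 (SE 0.14, adjusted p = 1.47e-05) and SC5D by 1.96 (SE 0.11, adjusted p = 4.73e-06), and both were higher in pESC than in nESC lines, by 0.62 (SE 0.15, adjusted p = 0.0145) and 0.75 (SE 0.11, adjusted p = 0.00187).

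SQLE, squalene epoxidase and an early oxygen-using step, followed the mevalonate genes instead. It had 78.8, 86.4 and 66.9 FPKM in the pXEN lines, 59.7 and 51.5 in the nESC lines and 39.2 and 38.1 in the pESC lines. It was higher in pXEN than in nESC lines by 0.47 (SE 0.13, adjusted p = 0.0176), a call that upper-quartile scaling removed (adjusted p = 0.0697) and without nESC line 2 (adjusted p = 0.131). HSD17B7, a sterol 3-keto reductase, had 21.0, 19.9 and 12.98 FPKM in pXEN lines, 15.9 and 11.0 in nESC lines and 6.61 and 7.17 in pESC lines; the pXEN and nESC lines overlapped, and the pESC lines were below both, with a log2 difference of -0.98 (SE 0.28, adjusted p = 0.0295) from nESCs.

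LSS, which closes squalene epoxide into lanosterol, had 159.8, 74.1 and 140.3 FPKM in pXEN lines 1, 2 and 3, 53.6 and 42.4 in the nESC lines and 44.1 and 38.4 in the pESC lines. All 3 pXEN lines were above every ESC line, yet pXEN line 2 was the lowest of the 3, with log2 FPKM differences of -1.11 from line 1 and -0.92 from line 3. LSS lies on chromosome 13 (218517420 to 218540493), where 1060 genes (mean count 10 or more) had a median log2 difference of -0.40 for line 2 minus line 1 and of -0.39 for line 2 minus line 3, and a median of 0.48 for pXEN against nESC. The fold changes of LSS were 1.37 (SE 0.30, adjusted p = 0.00544) against nESCs, not called without nESC line 2 (adjusted p = 0.0521), and 1.60 (SE 0.30, adjusted p = 0.00324) against pESCs. Without pXEN line 2 they were 1.64 (adjusted p = 1.08e-05) and 1.87 (adjusted p = 7.21e-06), and the chromosome 13 median against nESCs was 0.62. The part of the chromosome in these values was not tested.

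NSDHL, of the C4 demethylation complex, and DHCR7, the last reductase of the route, were higher in pXEN than in nESC lines by 0.83 (SE 0.16, adjusted p = 0.0029) and 0.90 (SE 0.20, adjusted p = 0.00568), and neither passed the test against pESCs (adjusted p = 0.0899 and 0.141). The DHCR7 call did not hold without nESC line 2 (adjusted p = 0.055). NSDHL ran from 36.6 to 44.7 FPKM in pXEN lines and from 19.5 to 34.2 in the ESC lines; DHCR7 ran from 35.8 to 53.7 in pXEN lines and from 22.3 to 38.2 in the ESC lines. CYP51, lanosterol demethylase, had 67.1, 51.6 and 39.6 FPKM in the pXEN lines and between 35.2 and 37.6 in the 4 ESC lines; every pXEN line was above every ESC line, and the test was not passed (adjusted p = 0.0526 and 0.0542). Without pXEN line 2 it was, narrowly, in both (adjusted p = 0.0461 for each). EBP, the sterol isomerase, had 67.8 to 111 FPKM over the 7 libraries with pXEN and nESC lines overlapping, and was called in no comparison.

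**Figure D2:**
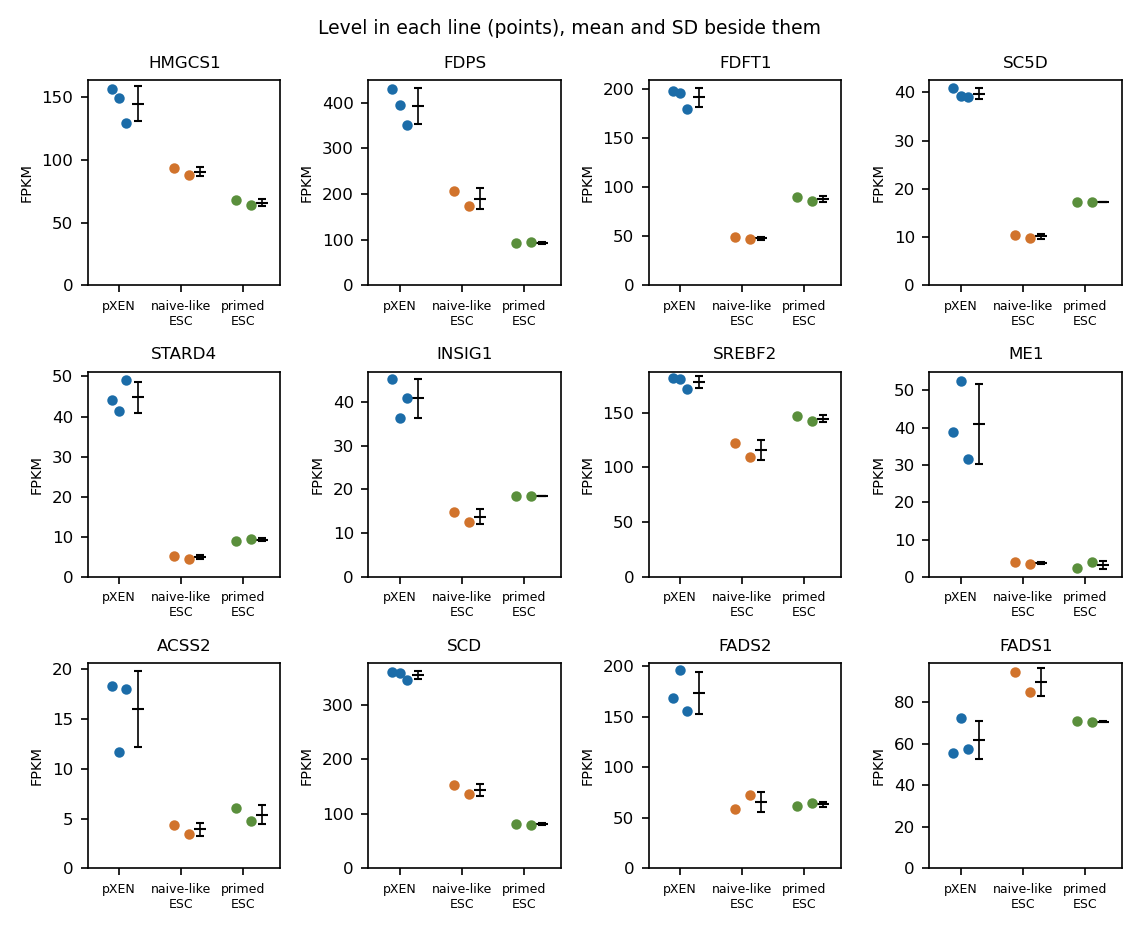
FPKM (vertical axes, each starting at 0) of 12 genes in the 3 pXEN, 2 naïve-like ESC and 2 primed ESC lines; points are lines, and the bar beside them gives the mean and SD of the group. HMGCS1, FDPS and SCD fall from pXEN through naïve-like to primed ESCs, while FDFT1, SC5D and STARD4 are lowest in the naïve-like ESCs.

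Among the regulators, both SREBP genes were higher in pXEN cells. SREBF2, for the factor that mainly drives sterol synthesis, had 182, 181 and 171 FPKM in pXEN lines, 122 and 109 in nESC lines and 147 and 143 in pESC lines. It was higher by 0.61 (SE 0.097, adjusted p = 0.00106) than in nESCs and by 0.31 (SE 0.096, adjusted p = 0.0295) than in pESCs; the second call was gone under upper-quartile scaling (adjusted p = 0.0714), and without pXEN line 1, pESC line 1 or pESC line 2 in turn (adjusted p = 0.0795, 0.129 and 0.183). SREBF1, for the factor that mainly drives fatty acid synthesis, was read from an entry listed as ADD1, an older name of the gene in pig, on the unplaced scaffold GL896203.1. The entry stood at 18.3, 25.0 and 18.9 FPKM in pXEN lines, 9.15 and 7.67 in nESC lines and 3.29 and 4.07 in pESC lines. This was the order of FDPS and SCD, with log2 differences of 1.30 (SE 0.21, adjusted p = 0.00124), 2.50 (SE 0.23, adjusted p = 8.43e-05) and, for pESC against nESC, -1.20 (SE 0.24, adjusted p = 0.00664), the last lost without pESC line 1 (adjusted p = 0.0593).

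INSIG1, which retains SCAP and is itself induced by SREBP, had 45.3, 36.3 and 40.9 FPKM in pXEN lines, 14.9 and 12.6 in nESC lines and 18.5 and 18.5 in pESC lines. The pXEN lines were higher than both ESC types, by 1.56 (SE 0.14, adjusted p = 4.57e-05) and 1.15 (SE 0.13, adjusted p = 0.000281). SCAP, the escort and sterol sensor, had 58.6, 31.5 and 56.1 FPKM in the pXEN lines, 49.4 and 48.0 in the nESC lines and 43.5 and 41.4 in the pESC lines. pXEN line 2 was below every other library, and pXEN lines 1 and 3 above every ESC line. SCAP is on chromosome 13 like LSS (33483932 to 33528440), and its log2 differences were -0.0059 (SE 0.23, adjusted p = 0.991) and 0.21 (SE 0.24, adjusted p = 0.504); without pXEN line 2 they were 0.23 (adjusted p = 0.0329) and 0.44 (adjusted p = 0.0016), both called.

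STARD4, a cytosolic carrier that moves cholesterol between membranes, had the second largest difference from nESCs. Its levels were 44.1, 41.4 and 49.0 FPKM in pXEN lines, 5.25 and 4.55 in nESC lines and 9.05 and 9.51 in pESC lines. The log2 differences were 3.18 (SE 0.16, adjusted p = 3.49e-06) and 2.28 (SE 0.15, adjusted p = 1.93e-05), and pESC lines exceeded nESC lines by 0.91 (SE 0.17, adjusted p = 0.00501).

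In the supply of acetyl-CoA and NADPH and in fatty acid synthesis, 4 of 5 genes were higher in pXEN cells against each ESC type. ME1, cytosolic malic enzyme and a source of NADPH, had 38.9, 52.5 and 31.5 FPKM in pXEN lines, 3.87 and 3.47 in nESC lines and 2.31 and 3.87 in pESC lines. This was the largest difference of the set in both comparisons, 3.48 (SE 0.30, adjusted p = 4.36e-05) and 3.74 (SE 0.30, adjusted p = 5.13e-05). ACSS2, which makes acetyl-CoA from acetate, had 18.3, 11.6 and 18.0 FPKM in pXEN lines, 4.39 and 3.47 in nESC lines and 6.05 and 4.75 in pESC lines, with log2 differences of 2.02 (SE 0.24, adjusted p = 0.000242) and 1.57 (SE 0.23, adjusted p = 0.000967). ACLY, which makes it from citrate, had 145, 122 and 144 FPKM in pXEN lines and 64.7 to 72.7 in the ESC lines, higher by 0.99 (SE 0.11, adjusted p = 0.00021) and 1.00 (SE 0.11, adjusted p = 0.000265).

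FASN, fatty acid synthase, had 356, 299 and 336 FPKM in pXEN lines, 257 and 221 in nESC lines and 194 and 198 in pESC lines, higher by 0.46 (SE 0.11, adjusted p = 0.00973) and 0.76 (SE 0.12, adjusted p = 0.00106); the first call did not hold under upper-quartile scaling (adjusted p = 0.0582) and without nESC line 2 (adjusted p = 0.0855). The entry named ACACA, for acetyl-CoA carboxylase, is 225 bases long and passed no test (4.56 to 12.1 FPKM). The longer unnamed entry with this gene's identifier, 6684 bases, had 31.8, 32.7 and 30.1 FPKM in pXEN lines, 20.5 and 19.4 in nESC lines and 21.8 and 20.6 in pESC lines, and was higher in pXEN lines by 0.66 (SE 0.096, adjusted p = 0.00073) and 0.58 (SE 0.096, adjusted p = 0.00164).

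Of the 7 genes for elongation, desaturation and activation, 2 were higher and 1 lower in pXEN cells than in nESCs, and 3 were higher than in pESCs. SCD, the desaturase that makes oleate, had 359.9, 358 and 346 FPKM in pXEN lines, 152 and 136 in nESC lines and 82.1 and 79.3 in pESC lines. The spread among pXEN lines was small beside the steps between cell types, which were 1.30 (SE 0.099, adjusted p = 2.23e-05) against nESCs, 2.14 (SE 0.10, adjusted p = 4.72e-06) against pESCs and -0.85 (SE 0.10, adjusted p = 0.000796) between pESCs and nESCs. The desaturases of polyunsaturated fatty acids, FADS2 and FADS1, lie near each other on chromosome 2 (9119389 to 9152215 and 9247472 to 9263631) and moved apart. FADS2 had 168, 196 and 155 FPKM in pXEN lines, 59.0 and 72.7 in nESC lines and 61.6 and 64.9 in pESC lines, higher by 1.39 (SE 0.15, adjusted p = 0.000126) and 1.46 (SE 0.15, adjusted p = 0.00014).

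FADS1 had 55.8, 72.6 and 57.5 FPKM in pXEN lines, 94.8 and 85.2 in nESC lines and 70.9 and 70.5 in pESC lines. It was lower in pXEN than in nESC lines, with a log2 difference of -0.54 (SE 0.13, adjusted p = 0.0095), a call lost without nESC line 1 (adjusted p = 0.0745). pXEN line 2 was above the pESC lines and pXEN lines 1 and 3 below them, and without line 2 the difference from pESCs, -0.31, was called (adjusted p = 0.00968). ACSL3, which activates fatty acids to acyl-CoA, had 42.0, 49.4 and 38.2 FPKM in pXEN lines, 60.4 and 47.3 in nESC lines and 24.6 and 23.2 in pESC lines. pXEN and nESC lines overlapped, and the pESC lines were below both, with a log2 difference of -1.18 (SE 0.17, adjusted p = 0.00154) from nESCs. Without pXEN line 2 the pXEN lines were called lower than the nESC lines for ACSL3 too (-0.43, adjusted p = 0.0157). The elongases were called in no comparison: ELOVL5 had 39.5 to 50.01 FPKM over the 7 libraries and ELOVL6, on a model of 388 bases, 10.7 to 20.9, while ELOVL1 was below 0.75 FPKM in every library, with 12 to 49 counts.

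**Figure D3:**
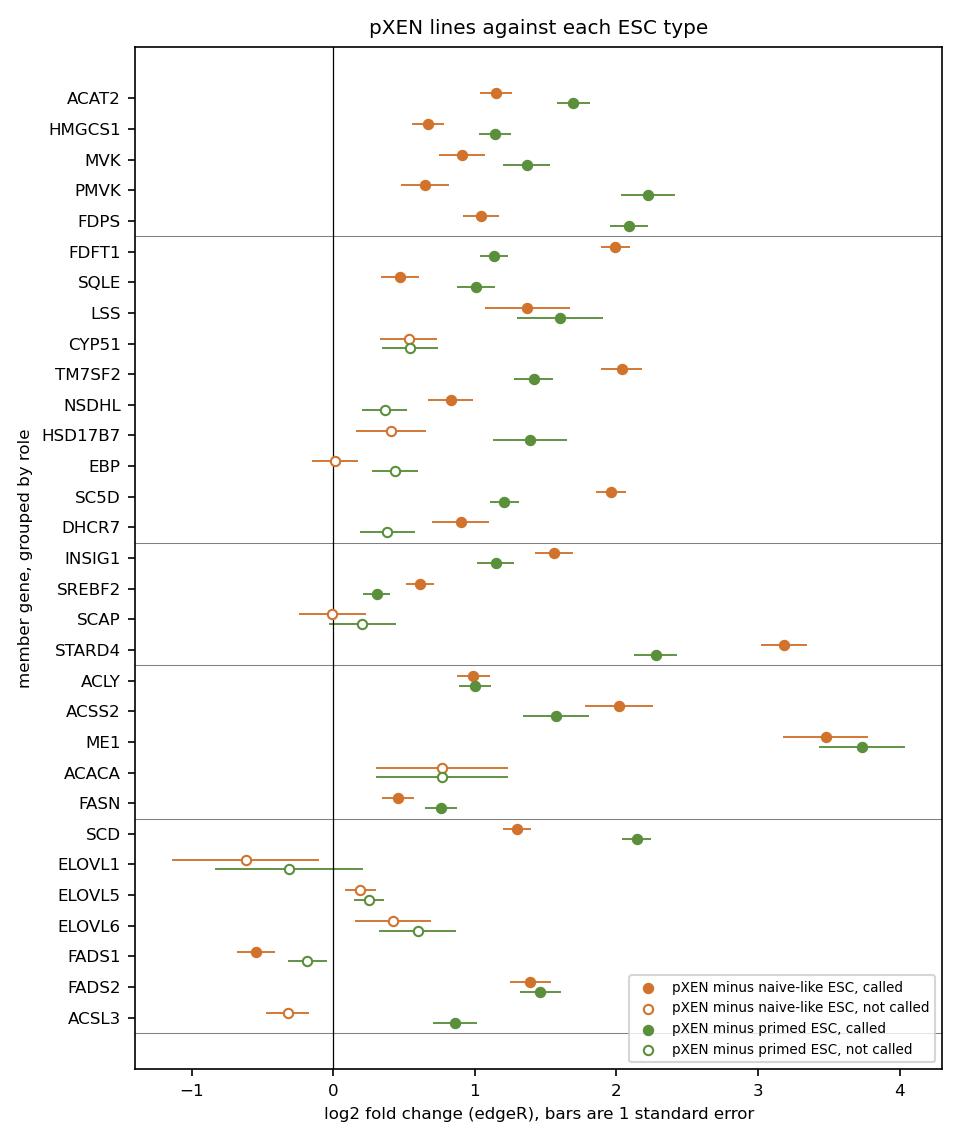
Log2 fold change from edgeR (horizontal axis; bars are 1 standard error) of the 31 genes in pXEN against naïve-like ESC lines (orange) and against primed ESC lines (green); filled points were called at an adjusted p below 0.05. ME1 and STARD4 lie farthest to the right in both comparisons, and FADS1 is the called gene to the left of 0.

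The entries listed under other names or none extended the same picture, with 5 of 7 called higher against nESCs and 6 of 7 against pESCs. MSMO1, the C4 methyl oxidase of sterol synthesis (listed as SC4MOL), had 115, 122 and 109 FPKM in pXEN lines, 53.6 and 41.6 in nESC lines and 35.1 and 39.1 in pESC lines, higher by 1.27 (SE 0.14, adjusted p = 0.000141) and 1.64 (SE 0.14, adjusted p = 6.1e-05). GPAM, the acyltransferase that starts glycerolipid synthesis (listed as GPAT), had 32.7, 30.2 and 30.6 FPKM, 17.9 and 15.8, and 10.4 and 10.17 in the same order of cell types. LPIN1, a phosphatidate phosphatase, had 17.5, 11.1 and 16.7, then 6.34 and 5.82, then 3.95 and 3.64 FPKM. GPAM and LPIN1 were called higher in pXEN cells against both ESC types, by 0.89 (SE 0.10) and 1.31 (SE 0.20) against nESCs and by 1.60 (SE 0.11) and 2.00 (SE 0.21) against pESCs. ACSL1, an acyl-CoA synthetase (listed as FACL2), had 36.0, 52.1 and 31.6 FPKM in pXEN lines, 35.0 and 28.0 in nESC lines and 13.5 and 12.4 in pESC lines, and was called against the pESC lines (1.63, SE 0.23, adjusted p = 0.000723) and not against the nESC lines (adjusted p = 0.218).

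IDI1, isopentenyl diphosphate isomerase, gave no clear level. Its entry had 525 counts in pESC line 1 and between 77 and 141 in the other libraries, and a second chromosome 10 entry with the same description had 602 counts in pXEN line 3 and between 4 and 34 in the others. The IDI1 entry had 97 counts in pXEN line 3, and the second entry had 4 in pESC line 1. Whether reads were split between these entries was not tested, and the levels of both are uncertain. With the 7 entries added, 27 of 38 were called against nESCs (26 higher, 1 lower) and 27 against pESCs (27 higher, 0 lower). Between the ESC types 16 were called (4 higher, 12 lower in pESCs). There the LPIN1 call held under 9 of 16 alternative settings, and the ACSL1 and SREBF1 calls each under 15. LPIN1 was lost with limma on log2(FPKM + 1) and on log2(FPKM + 0.1) (adjusted p = 0.102 and 0.0809).

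Between the ESC types, calls went in both directions, also within the sterol segment. Of the 31 genes, 4 were higher and 8 lower in pESCs, where 19.0% of all genes were higher and 13.3% lower (32.2% in all). Lower in pESCs were PMVK, FDPS, ACAT2 and HMGCS1 of the mevalonate segment, SQLE and HSD17B7 after it, and SCD and ACSL3 of fatty acid desaturation and activation. Higher in pESCs were FDFT1, TM7SF2 and SC5D of the sterol segment and the carrier STARD4. SREBF2 stood at 0.31 (SE 0.10, adjusted p = 0.0571) and INSIG1 at 0.41 (SE 0.14, adjusted p = 0.0591), both just outside the threshold. SREBF2 was inside it with DESeq2 (adjusted p = 0.0198), with limma on log2(FPKM + 1) and log2(FPKM + 0.1) (adjusted p = 0.0349 and 0.0355), with a minimum of 10 counts in every library (adjusted p = 0.0435) and with only the ESC libraries fitted (adjusted p = 0.0227), and INSIG1 with only the ESC libraries fitted. This comparison rests on 2 lines a side and changed most with the libraries fitted: with 1 line left out, 7 to 18 genes were called, and with only the 4 ESC libraries fitted, 19. PMVK, FDPS, FDFT1, SC5D, STARD4, SCD and ACSL3 were called under all 16 alternative settings; the other 5 of the 12 each missed the threshold when some ESC line was left out. Without pXEN line 2, NSDHL, INSIG1 and SREBF2 were also called higher, and EBP, FASN and FADS1 lower. That line is in neither group compared here and enters through the shared filter, scaling, estimate of the spread and p adjustment.

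**Figure D4:**
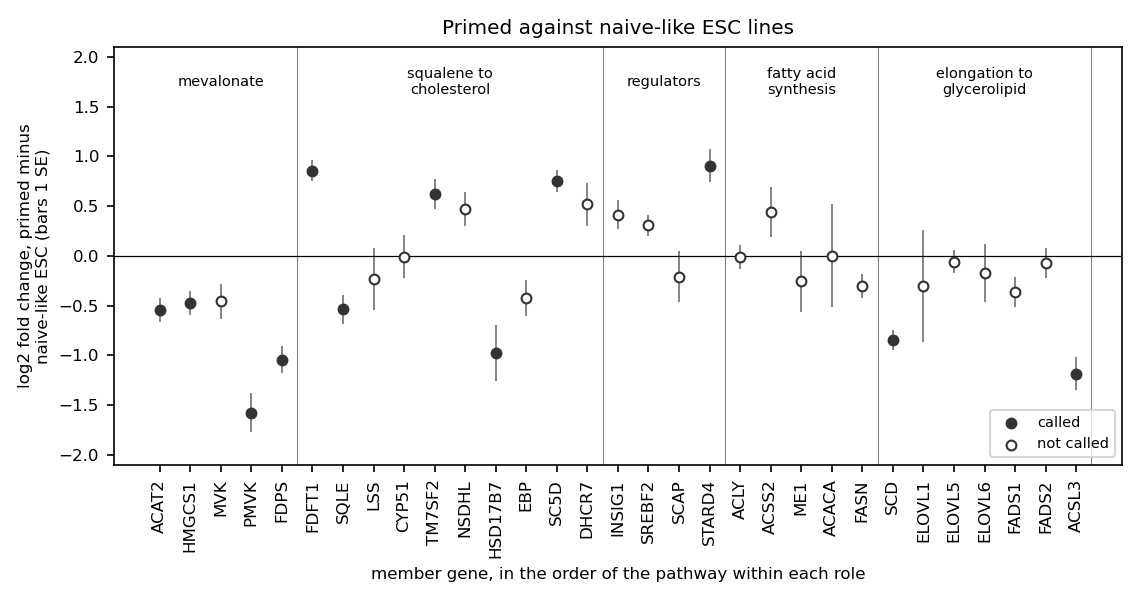
Log2 fold change from edgeR in primed minus naïve-like ESC lines (vertical axis; bars are 1 standard error) for the 31 genes in the order of the pathway within each role; filled points were called at an adjusted p below 0.05. The mevalonate genes lie below 0, FDFT1, TM7SF2 and SC5D above it, and SCD and ACSL3 below it.

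The pXEN lines were close to each other for most of these genes, though the genes set beside them were not matched for count level. Among the pXEN lines the ratio of the highest to the lowest FPKM had a median of 1.25 over the 31 genes, beside 1.39 over the 16366 tested genes averaging 10 counts or more, and was above 1.5 for 8 of the 31, beside 40.7% of those genes. The 8 were LSS, SCAP, CYP51, HSD17B7, ACSS2, ME1 and the sparsely counted ACACA fragment and ELOVL1. pXEN line 2, with its higher fibroblast marker sum, was the highest pXEN line for ME1 (52.5 FPKM) and the lowest for ACSS2 (11.6 FPKM); the part of other cells in these levels was not tested. Without it 25, 24 and 18 genes were called in the 3 comparisons, in place of 22, 21 and 12, while over all genes the counts went from 9514, 8429 and 5621 to 10359, 9566 and 7566.

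Genes around the route were called in both directions. Over 7 lists of related lipid genes, 131 genes were tested, and 51 were higher and 29 lower in pXEN lines than in nESCs, with 51 and 28 against pESCs; without pXEN line 2, 90 and 89 were called in place of 80 and 79. Over all genes tested 28.3% were higher and 26.2% lower against nESCs, and 23.9% and 24.4% against pESCs. The share of related genes called lower was near that of all genes in both comparisons, and no difference between a list and all genes was tested. In the isoprenoid branch, which draws farnesyl diphosphate away from sterol, 1 of 13 genes was higher and 4 lower against nESCs, and 1 higher and 6 lower against pESCs, with medians of -0.38 and -0.50; the share lower against nESCs was near that of all genes. RABGGTB, a subunit of the enzyme that prenylates Rab proteins, had 26.8, 32.2 and 26.7 FPKM in pXEN lines, 86.2 and 76.4 in nESC lines and 60.3 and 59.9 in pESC lines. NUS1, a subunit of the dolichol-making transferase, was the gene that was higher against nESCs, at 43.1, 38.7 and 43.4 FPKM against 19.2 and 17.0.

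In the list of SREBP processing and control, 9 of 22 genes were higher and 2 lower against nESCs, and 8 higher and 2 lower against pESCs. ERLIN1, an endoplasmic reticulum protein that takes part in the sterol-dependent breakdown of INSIG-bound proteins, had 88.6, 89.1 and 83.5 FPKM in pXEN lines, 20.1 and 18.7 in nESC lines and 27.5 and 28.0 in pESC lines. SEC24D, a coat protein of the vesicles that leave the endoplasmic reticulum, had 20.0, 16.7 and 21.9, then 2.91 and 2.52, then 6.02 and 5.55 FPKM. Both were called against both ESC types, ERLIN1 by 2.16 (SE 0.10, adjusted p = 2.93e-06) and SEC24D by 2.84 (SE 0.20, adjusted p = 1.41e-05) against nESCs.

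In sterol transport, storage and export, 10 of 18 genes were higher and 2 lower against nESCs, and 9 higher and 3 lower against pESCs. NPC2, which hands cholesterol out of the lysosome, had 1244, 831 and 1038 FPKM in pXEN lines, 22.8 and 20.1 in nESC lines and 91.3 and 99.4 in pESC lines, differences of 5.59 (SE 0.22, adjusted p = 1.18e-06) and 3.45 (SE 0.19, adjusted p = 8.3e-06). MYLIP, a ubiquitin ligase that removes lipoprotein receptors, had 19.1, 19.5 and 19.0 FPKM in pXEN lines and 0.861 to 1.66 in the ESC lines. NCEH1, a cholesteryl ester hydrolase, had 86.4, 51.8 and 76.1 FPKM in pXEN lines and 4.94 to 8.29 in the ESC lines. SOAT2, which esterifies cholesterol, had 129, 127 and 141 counts in pXEN lines, 0 and 0 in nESC lines and 7 and 5 in pESC lines; set against a floor of 3 counts per nESC library, it was at least 42.8-fold higher in CPM in pXEN than in nESC lines.

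Lists of lipid use and storage were called in both directions, as were all genes tested. Of all genes, 28.3% were higher and 26.2% lower against nESCs, and 23.9% and 24.4% against pESCs. No difference between these lists and all genes was tested. Of 21 glycerolipid genes 11 were higher and 5 lower against nESCs, with 10 and 5 against pESCs; PEMT, which makes phosphatidylcholine by methylation, had 438, 360.5 and 399 FPKM in pXEN lines, 22.4 and 19.4 in nESC lines and 37.3 and 42.2 in pESC lines. Of 22 other fatty acid genes 6 were higher and 8 lower against nESCs, with 9 and 6 against pESCs; ELOVL2, an elongase of polyunsaturated fatty acids, had 77.3, 56.8 and 70.1 FPKM in pXEN lines against 11.5 and 12.7 in pESC lines, and ACSL4, an arachidonate-activating synthetase, 2.05, 0.92 and 1.98 against 32.7 and 31.2. Of 23 oxidation genes 10 were higher and 6 lower against nESCs, with 9 and 4 against pESCs. SLC25A20, the mitochondrial carnitine carrier, was higher than in nESCs, at 37.5 to 42.3 against 15.3 to 15.5 FPKM. ECI2, an enoyl-CoA isomerase, and HADHB, of the trifunctional protein, were lower, at 14.2 to 18.1 against 40.7 to 41.1 FPKM and 12.6 to 17.0 against 33.1 to 36.9 FPKM. Of 12 droplet genes 4 were higher and 2 lower against nESCs, with 5 and 2 against pESCs; the droplet coat PLIN3 was higher (36.2, 38.1 and 40.1 FPKM against 7.20 and 7.54 in nESC lines), as was ABHD5, an activator of lipolysis (9.50, 10.04 and 8.55 against 2.04 and 1.49), and the coat PLIN2 was lower (8.29, 13.2 and 6.39 against 32.0 and 39.1). CIDEB, of the droplet-associated CIDE family, was counted 263, 246 and 263 times in the pXEN libraries and 0 times in either nESC library, at least 83.3-fold higher in CPM against the floor of 3 counts per nESC library.

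**Figure D5:**
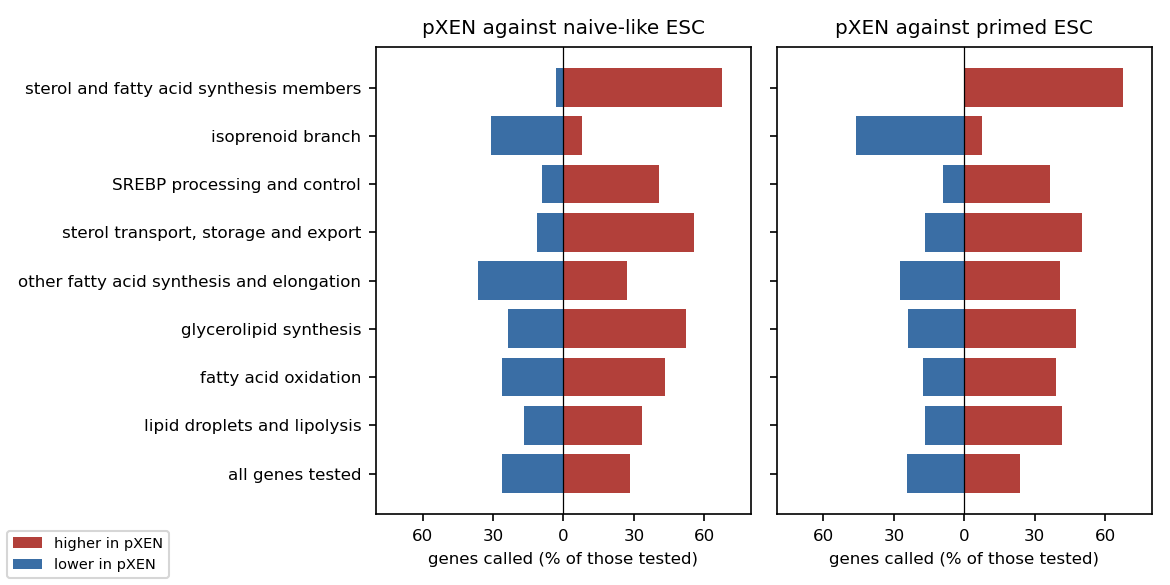
Share of genes called higher (red, to the right) and lower (blue, to the left) in pXEN lines, in percent of the genes tested in each list, against naïve-like ESC lines (left) and primed ESC lines (right). The synthesis genes, 21 of 31 higher in each panel, have the longest bars to the right and the shortest to the left; in the isoprenoid branch 4 and 6 of 13 genes were lower.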

How the data were processed

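RNA-seq libraries were rRNA-depleted and directional. Per the labels, HISAT2 2.0.5, featureCounts 1.5.0-p3 and edgeR 3.22.5 were named in the submitters' processing notes, with genome build Sscrofa10.2. The authors deposited raw counts per gene, and the FPKM deposited beside them equals each count times 1 factor per library over the listed gene length. The strand setting of the counting is not given in the sources used here. Groups came from the sample labels.

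Counts were tested with edgeR 4.0.16 (R 4.3.3): filterByExpr, TMM scaling, cell type as the only factor, all 7 libraries in 1 quasi-likelihood fit, and Benjamini-Hochberg adjustment over 17447 genes. With 1 library per line, p-values measure the spread between lines. The 3-count floor corresponded to 0.231 to 0.288 CPM and covers counting error only. Alternatives were RLE and upper-quartile scaling, no filter or a minimum of 10 counts, DESeq2 1.42.0, limma 3.58.1 on log2(FPKM + 1) and log2(FPKM + 0.1), only the 2 groups compared, a replicate block, and leaving out each line; counting the 7 entries under other names was added after seeing the data.

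The genes and lists were chosen with earlier results of these data known. Every gene of the set was named; values per library were given at least for the SREBP regulators and, per comparison, the 8 called genes with the largest change, and examples from each related list were taken among its 4 called genes with the smallest adjusted p in a comparison, from the smallest on. No promoter sequence was used here. Figures were drawn with matplotlib 3.10.9.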

Additional observations from a re-analysis of the deposited data

How the results depend on the processing

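Of the calls above, 16 of 22 (pXEN against nESC), 20 of 21 (pXEN against pESC) and 7 of 12 (pESC against nESC) held under all 16 alternatives tried, and no called gene changed direction. Upper-quartile scaling moved the median of all genes for pXEN against nESC to -0.16 and that of the synthesis genes to 0.66, with 2 genes called lower. SCAP, not called, changed sign there: 0.0010 with RLE scaling, 0.0012 with DESeq2 and -0.16 to 0.23 with 1 line left out. With 1 line left out, the genes called lower in pXEN cells numbered 0 to 2 against nESC and 0 to 1 against pESC, and the related-list genes called against pESC 51 to 89. For pESC against nESC, fitting only those libraries gave 19 called and 8 higher; with 1 line left out 7 to 18 were called (3 to 7 higher, 4 to 11 lower; 7 without either pESC line) and 22 to 71 related-list genes. The numbers of genes called, also over all genes, both rose and fell in fits with fewer libraries. The cause of these changes was not tested. Same-numbered lines had correlations near 0 in their deviations (-0.0081 to 0.037), which gives no sign of pairing but cannot exclude a shared origin. With the replicate block 23, 24 and 14 genes were called in the 3 comparisons. Only pXEN has a line 3, so the block fits that line exactly and it does not inform the pXEN comparisons. Of the calls above, SREBF2 against pESC was lost with the block (adjusted p = 0.0599). The ACACA fragment and ELOVL1 had few counts per library, and the part of depth in their results was not tested.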
